A study of Danio rerio with 16 samples.

Results

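Chromatin and histone modifying genes code for the proteins that write, erase and read marks on histones, move nucleosomes and package DNA. They were followed here in the fast skeletal muscle of adult wild-type zebrafish that had or had not been trained by swimming. Members were taken by gene family, through the RefSeq accession printed for each array probe: the histone deacetylases and sirtuins, the lysine acetyltransferases, methyltransferases and demethylases, the protein arginine methyltransferases, Polycomb repressive complex 2, the SWI/SNF and CHD remodellers, the bromodomain, chromodomain and ING readers, the RBBP proteins, the DNA methylation enzymes, H2A and H3.3 histones, and the high mobility group proteins. This gave 109 probes of 65 genes in 13 classes, out of 43803 non-control probes, of which 9104 carried a symbol of 5952 genes.

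Acetyl groups on histone tails are added by lysine acetyltransferases and removed by histone deacetylases and sirtuins, and acetylated chromatin is generally open to transcription. Methyl groups are added to lysines mostly by SET domain enzymes and to arginines by the protein arginine methyltransferases (PRMTs), which also modify splicing and RNA-binding proteins. In vertebrate skeletal muscle, class IIa histone deacetylases hold the MEF2 transcription factors in check, and SWI/SNF remodellers, PRMT5 and the coactivator CARM1 act with the myogenic factors when muscle genes are switched on.

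Exercised fish (n = 8) swam in daily sessions of 6 hours over 20 days, at 0.4 m/s, and non-exercised fish (n = 8) were kept at 0.1 m/s for the same time. All fish were adults of unstated age bought from a shop, and each group lived in a swim tunnel of its own, so tunnel and training cannot be told apart. RNA of dorsal fast muscle from each fish was hybridised to 1 single-colour Agilent array. Values are given as log2 signal, the log2 of the processed signal minus the 75th percentile of the same array, so that 0 is the level at which a probe is brighter than most of the array. Differences are exercised minus non-exercised on that scale, with the standard error of the limma fit. A probe was called when its p-value, adjusted by Benjamini-Hochberg over all 43803 probes, was under 0.05.

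The arrays lay on 4 slides of 4, with non-exercised fish 1 to 4 on slide 1 and 5 to 8 on slide 2, and exercised fish 1 to 4 on slide 3 and 5 to 8 on slide 4. No slide held fish of both groups, and the scan day differed between groups as well, so neither can be told apart from training. Between 33.7% and 48.5% of probes were well above background on the non-exercised arrays, 44.1% to 54.0% on slide 3 and 21.1% to 36.1% on slide 4, which therefore stood apart as dim. Well above background were 35 of the 109 member probes on all 16 arrays, 86 on at least 8 and 7 on none. Fast muscle markers such as ckma and mylpfa were well above background on all 16 arrays, but their spots were left out in some fish. The fast muscle sum therefore covered neither of them, only 6 probes measured in every fish. Of these, the tpma probe A_15_P115009 had the highest mean signal and was the only one well above background on all 16 arrays. It differed by 0.74 ± 0.37 (adjusted p = 0.294). Both tnnt3a probes went the other way, by -2.81 ± 0.65 (adjusted p = 0.0135, called lower) and -2.04 ± 0.84 (0.177), as did mylpfb by -0.39 ± 1.05. Both tnni2a.1 probes were well above background on no array. The median of the fast muscle sum was 76.5 in exercised fish (30.1 to 148.0) and 48.7 in non-exercised fish (22.5 to 97.4). The summed signal of fibroblast markers had a median of 196.6 in exercised and 64.7 in non-exercised fish, with ranges of 55.0 to 237.5 and 36.8 to 266.0, and that of red cell markers 10.98 and 4.96, with ranges of 6.04 to 45.9 and 1.29 to 9.64. Liver markers had median sums of 2.23 and 1.03, with ranges of 0.672 to 6.94 and 0.775 to 2.12. Of the 14 liver probes, however, 1 was well above background on at least 8 arrays and 6 on none. Much of the liver sum is therefore signal near background. Leukocyte markers had a median sum of 44.5 in exercised fish (22.3 to 1042) and 99.0 in non-exercised fish (25.7 to 185.0). The part of these cells in the results below was not tested. In whole muscle, fewer cells of a type and less RNA per cell cannot be told apart.

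Among the member probes, exercise training was accompanied by lower mRNA levels of a small number of chromatin genes and by no called increase. A probe outside the members that the authors' table describes as hdac6 was called higher, as given below. Of the 109 member probes, 9 were called lower, and they belonged to 7 genes: the arginine methyltransferases prmt1 and carm1, the methyltransferases smyd5 and setd6, the SWI/SNF subunits smarca4a and smarce1, and the nucleosome-binding protein gene hmgn3. No member probe was called higher by limma, with 28 member probes at an unadjusted p under 0.05, 22 of them lower and 6 higher, and 1 probe called higher by the methods' t-test after adjustment, which called 4.51% of all probes higher. Over all probes, 1.79% were called lower, 4.58% higher and 6.37% in either direction, and 19.6% had an unadjusted p under 0.05. Among members this unadjusted share was 28 of 109. Calls went with brightness: of the 26287 probes well above background on under 8 arrays, 0.289% were called lower and 5.15% higher. Of the 17516 others, 4.05% were called lower and 3.71% higher. Of the 5051 of these that carried a symbol, as all members do, 4.99% were lower and 2.32% higher, with a median difference of -0.17. Of the 86 members among them, 8 were lower (9.3%) and 0 higher. The members had a median difference of -0.29 and the bright members -0.33, against 0.26 for all probes and -0.09 for the bright ones, and 76 of 109 members had a negative difference. Another scaling or background setting of the arrays (5 were run) moved the median of all probes to between -0.08 and 0.01, and the members' median then lay between -0.54 and -0.21.

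**Figure D1:**
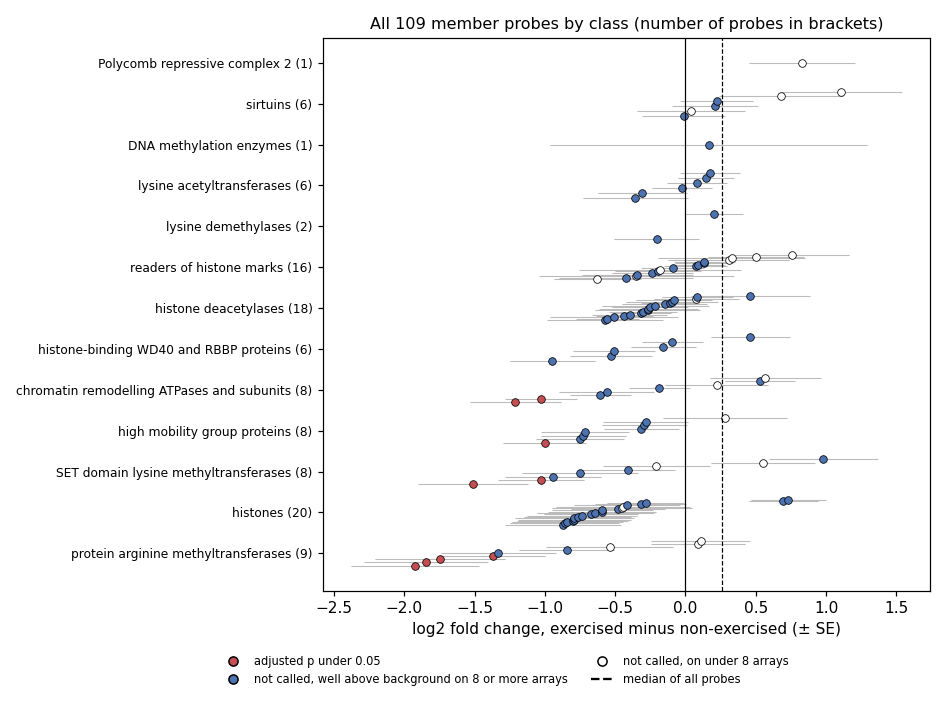
Difference in log2 signal between exercised and non-exercised fish (x axis, ± SE of the fit) for each of the 109 member probes, grouped by class (y axis, ordered by the median of the class). The 9 called probes (red) all lie left of 0, and 4 of them are arginine methyltransferase probes; the dashed line is the median of all probes, 0.26.

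The classes differed in how far they moved. The 9 arginine methyltransferase probes had the lowest median, -1.33, with 4 called. The 20 histone probes followed with -0.62 and none called, then the 8 SET domain probes with -0.58 and 2 called, the 8 high mobility group probes with -0.52 and 1 called, and the 8 remodeller probes with -0.37 and 2 called. The 18 histone deacetylase probes (median -0.26), the 6 lysine acetyltransferase probes (0.03), the 16 reader probes (-0.01), the 6 RBBP probes (-0.33) and the 6 sirtuin probes (0.22) held no called probe. These medians are descriptions, since several probes often report the same mRNA: 22 genes had more than 1 probe, and in 17 of them all probes had differences of the same sign.

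The arginine methyltransferases were the class with the most called probes. prmt1 codes for the main enzyme that places asymmetric dimethyl marks on arginines, on histone H4 and on many RNA-binding proteins. Its brightest probe, A_15_P119062, had a log2 signal of 0.71 to 3.40 in 8 exercised fish (median 2.44) and of 2.46 to 5.78 in 8 non-exercised fish (median 4.09). In 4 exercised fish the value was below that of every non-exercised fish, and the lowest non-exercised value, in fish 8, fell among the exercised ones. On the log2 scale the level fell by 1.92 ± 0.46, a 3.79-fold difference (adjusted p = 0.0162).

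A second bright prmt1 probe, A_15_P114252, had a log2 signal of 0.95 to 3.27 in 8 exercised fish (median 2.43) and of 2.36 to 5.64 in 8 non-exercised fish (median 3.99). It followed the first almost exactly, with a correlation of 0.999 over the 16 arrays, so the pair counts as 1 measurement of the mRNA. It fell by 1.85 ± 0.44 (adjusted p = 0.0165). On all 16 arrays both bright probes were well above background, and they kept their call in the other scalings (adjusted p from 0.0138 to 0.0438) and with any single fish left out (0.00419 to 0.0411). With the slide as a random block the adjusted p was 0.419 for A_15_P119062 and 0.42 for A_15_P114252, and 0 of 43803 probes were called lower.

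By slide, prmt1 A_15_P119062 averaged 4.82 on slide 1, 3.76 on slide 2, 2.40 on slide 3 and 2.33 on slide 4, so both exercised slides lay below both non-exercised ones. With slide 3 alone as the exercised group the difference was -1.89 and missed the threshold (adjusted p = 0.0583). With slide 4 alone it was -1.96 (adjusted p = 0.0248). Against slide 2 alone as the non-exercised group it was -1.39 (adjusted p = 0.186).

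The third prmt1 probe, A_15_P117861, was dim, well above background on 2 arrays of exercised and 6 of non-exercised fish, and its spot was left out in exercised fish 8. It had a log2 signal of -4.37 to -2.34 in 7 exercised fish (median -3.17) and of -3.65 to -0.25 in 8 non-exercised fish (median -1.49). The non-exercised fish fell apart by slide, with -0.93 to -0.25 on slide 1 and -3.65 to -2.04 on slide 2, and the slide 2 values overlapped those of exercised fish. The difference was -1.75 ± 0.46 (adjusted p = 0.0313). It was called without slide 4 or slide 2 (adjusted p = 0.0413 and 0.00602) but not with slide 2 alone as the non-exercised group (0.395). It also lost its call without exercised fish 2, 3 or 4 or any of non-exercised fish 1 to 4 (adjusted p from 0.055 to 0.0752), and with normexp correction (0.0635).

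carm1 codes for a PRMT that methylates histone H3 as a coactivator, and the same separation of slides appeared there. Its probe A_15_P108139 had a log2 signal of -3.34 to -1.86 in 8 exercised fish (median -2.80) and of -2.53 to -0.41 in 8 non-exercised fish (median -1.40). All 4 fish of slide 1 lay between -0.75 and -0.41, while the fish of slide 2, between -2.53 and -2.05, overlapped the exercised fish. The difference of -1.37 ± 0.37 was called (adjusted p = 0.0316), but against slide 2 alone it was -0.50 (adjusted p = 0.481). The call was also lost without exercised fish 2, 3, 4 or 6 or any of non-exercised fish 1 to 4 (adjusted p from 0.0528 to 0.0764) and with normexp correction (0.137). A_15_P108139 was itself dim, well above background on 1 array of exercised and 6 of non-exercised fish. The other carm1 probes were dimmer still: A_15_P102761 was well above background on no array and A_15_P121491 on 1, their differences were -0.54 ± 0.45 and 0.088 ± 0.34, and the latter turned negative under all 5 of the other scalings and background settings. The 3 carm1 probes correlated at 0.03 to 0.38 with each other, against 0.90 to 0.999 for the 3 prmt1 probes.

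**Figure D2:**
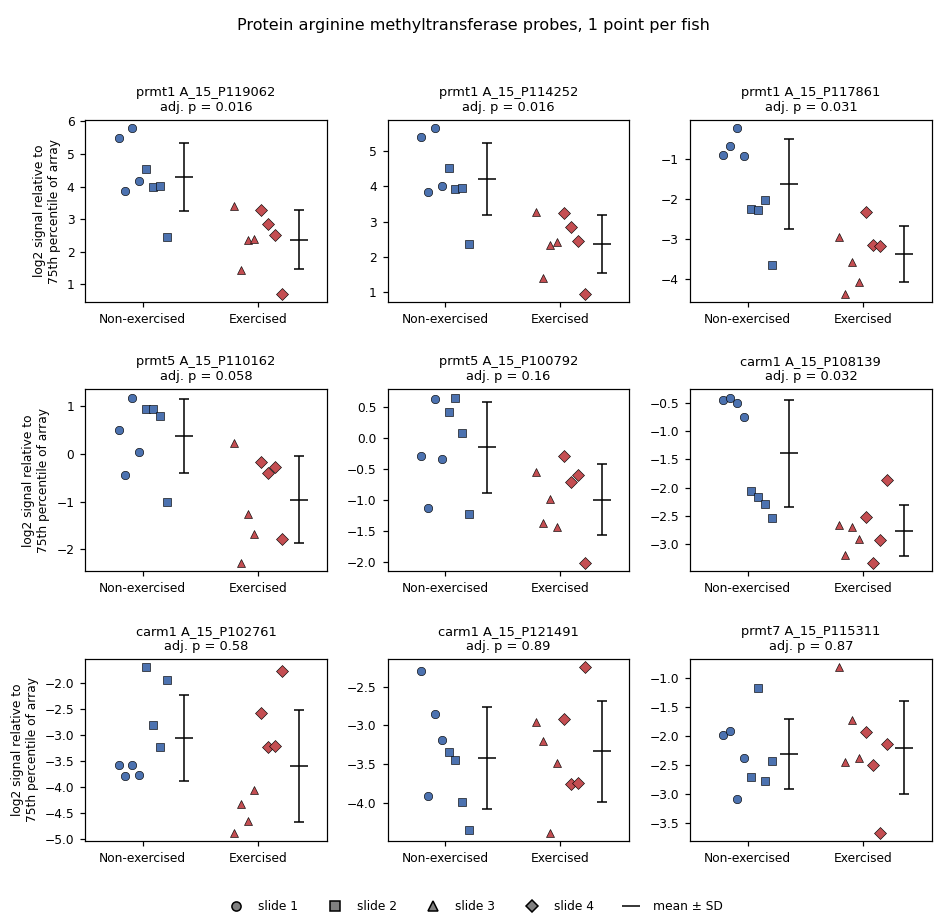
Log2 signal relative to the array's 75th percentile (y axis) of the 9 arginine methyltransferase probes in each fish (points, shaped by slide; blue, non-exercised, n = 8; red, exercised, n = 8, or 7 for prmt1 A_15_P117861), with mean ± SD. The bright prmt1 probes and prmt5 are lower on both exercised slides, whereas carm1 A_15_P108139 and prmt1 A_15_P117861 are high only on slide 1.

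prmt5 codes for the main enzyme of symmetric arginine dimethylation, which acts in splicing and in myogenic gene activation. Its probe A_15_P110162 had a log2 signal of -2.30 to 0.23 in 8 exercised fish (median -0.83) and of -1.003 to 1.18 in 8 non-exercised fish (median 0.65). Here too 4 exercised fish were below all non-exercised fish. The difference of -1.33 ± 0.41 missed the threshold (adjusted p = 0.0584) and passed it under the median shift (0.044), with the filter at 8 arrays well above background (0.0304), without exercised fish 1 (0.025) and without non-exercised fish 8 (0.0246). The other prmt5 probe, A_15_P100792, differed by -0.84 ± 0.34 (adjusted p = 0.156), with a correlation of 0.93 between them. The single prmt7 probe, A_15_P115311, was well above background on 2 arrays of each group and differed by 0.11 ± 0.35 (adjusted p = 0.87), with a sign that changed between scalings.

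The likeness of other mRNAs to prmt1 across fish was ranked. Among 2177 other symbol-bearing probes that were well above background and measured on all 16 arrays, the highest Pearson correlations with A_15_P119062 were those of copg2, a subunit of the COPI vesicle coat (0.962), nudc, a dynein-associated chaperone (0.962), rars1, the arginyl-tRNA synthetase (0.957), tia1l, an RNA-binding protein of stress granules (0.954), and tubb4b, a beta tubulin (0.951). These 5 were chosen for the likeness, all 16 arrays enter each value and the difference between groups is part of it, so no test is given.

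Of the 8 SET domain methyltransferase probes, 2 were called lower. smyd5, which codes for a lysine methyltransferase of the MYND family, had a log2 signal of -1.13 to 1.67 in 8 exercised fish (median -0.42) and of 0.26 to 2.08 in 8 non-exercised fish (median 1.37) at A_15_P111515. All but 2 exercised fish lay below the non-exercised range, and exercised fish 1, at 1.67, lay among the non-exercised ones. It fell by 1.51 ± 0.39 (adjusted p = 0.0257). The call was kept under the 5 other scalings and background settings (0.0219 to 0.0471) and lost without non-exercised fish 3 (adjusted p = 0.0632) or 5 (0.0524) and without exercised fish 2 (0.0591) or 3 (0.0547).

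setd6 codes for a lysine methyltransferase that in mammals acts on a subunit of NF-kappaB. At A_15_P109929 it had a log2 signal of -1.91 to -0.48 in 8 exercised fish (median -1.25) and of -1.31 to 0.91 in 8 non-exercised fish (median 0.014). Of the exercised fish, 3 lay below all non-exercised fish, with non-exercised fish 8 the lowest of its group. The difference of -1.03 ± 0.30 lay at the threshold (adjusted p = 0.0492), and its call was lost on leaving out any of 13 fish (up to 0.107), all but non-exercised fish 8 and exercised fish 1 and 5. Of the 5 other scalings and background settings, 3 kept the call, with an adjusted p of up to 0.0719 in the rest.

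No muscle-specific member of the class was called. smyd1a and smyd1b code for chaperone-like methyltransferases needed for myosin assembly in fish muscle. smyd1a had the brightest probe of the class, A_15_P100052, with a log2 signal of 7.09 to 7.85 in 5 exercised fish (median 7.61) and of 5.52 to 7.49 in 7 non-exercised fish (median 6.60). The signal was thus higher in exercised fish by 0.98 ± 0.39, with 1 measured fish on slide 3 and the adjusted p at 0.161. smyd1b differed by -0.75 ± 0.41 (adjusted p = 0.348) with 5 exercised fish below all non-exercised fish. setd3, the methyltransferase of actin histidine, differed by -0.94 ± 0.34 (adjusted p = 0.115) and passed the threshold under cyclic loess (0.0369), the median shift (0.0457) and the filter at 16 arrays (0.0447). It was named after its values were seen.

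The remodeller probes held 2 called subunits of SWI/SNF, the complex that slides and evicts nucleosomes with the energy of ATP. smarce1, coding for its HMG-box subunit BAF57, had a log2 signal of 1.49 to 2.72 in 8 exercised fish (median 2.01) and of 2.37 to 3.49 in 8 non-exercised fish (median 3.23) at A_15_P110487. The groups overlapped in 2 exercised fish, and the other 6 lay below all non-exercised fish. It fell by 1.03 ± 0.26 (adjusted p = 0.0205), was well above background on all 16 arrays and kept its call under the 5 other scalings and background settings (0.0196 to 0.0435). Leaving out exercised fish 2 gave an adjusted p of 0.0511, and leaving out any other single fish kept the call.

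smarca4a, coding for the ATPase BRG1, had a log2 signal of -2.39 to -0.17 in 8 exercised fish (median -1.93) and of -0.92 to 0.31 in 8 non-exercised fish (median -0.41) at A_15_P110887. The values of 6 exercised fish were below all non-exercised ones, and exercised fish 1, at -0.17, lay below 3 of the 8 non-exercised fish and above the other 5. The difference of -1.21 ± 0.32 (adjusted p = 0.0317) lost its call with normexp correction (0.15), with no background correction (0.0874) and without exercised fish 2, 3, 4, 5 or 8 or non-exercised 3, 6 or 7 (0.0587 to 0.0697). The paper, in contrast, lists SMARCA4 among the genes with higher expression in exercised fish. The probe behind its value was not identified, so the direction given here is that of A_15_P110887 alone. The core subunit gene smarcb1a, named after its values were seen, had 2 probes that did not say the same. Their differences were -0.61 ± 0.22 at A_15_P102159 (adjusted p = 0.108) and -0.19 ± 0.22 at A_15_P109632 (adjusted p = 0.667), and they correlated at 0.45. The former had 6 exercised fish below all non-exercised fish and was called under quantile normalization (0.0302), the median shift (0.0472), cyclic loess (0.033), the filter at 8 arrays (0.0319) and the methods' t-test. The CHD remodellers chd1l, chd4a and chd7 differed by 0.53 ± 0.25, -0.56 ± 0.34 and 0.57 ± 0.39, none of them called. The chd7 probe was well above background on no array, so its value is near background.

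Of the high mobility group genes, hmgn3 codes for a protein that binds inside nucleosomes and loosens chromatin. Its probe A_15_P114525 had a log2 signal of -2.80 to -0.96 in 8 exercised fish (median -1.13) and of -0.93 to 0.26 in 8 non-exercised fish (median -0.37). All 8 exercised fish lay below all 8 non-exercised fish, the only member probe whose groups did not overlap; 1.34% of all probes had groups that did not overlap. The lowest values were those of exercised fish 1 and 8, at -2.80 and -2.16. The difference of -1.002 ± 0.30 was at the threshold (adjusted p = 0.0493) and was lost with any one fish left out other than non-exercised fish 4 (0.0504 to 0.106). The brighter hmgn3 probes, A_15_P106515 and A_15_P117572, differed by -0.73 ± 0.30 and -0.72 ± 0.31 (adjusted p = 0.179 and 0.201), and the 3 correlated at 0.92 to 0.97. The brightest probe of the class, for the AT-hook protein gene hmga1a, had a log2 signal of 0.98 to 2.77 in 8 exercised fish (median 1.68) and of 1.82 to 3.22 in 8 non-exercised fish (median 2.51) and differed by -0.75 ± 0.31 (adjusted p = 0.179).

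**Figure D3:**
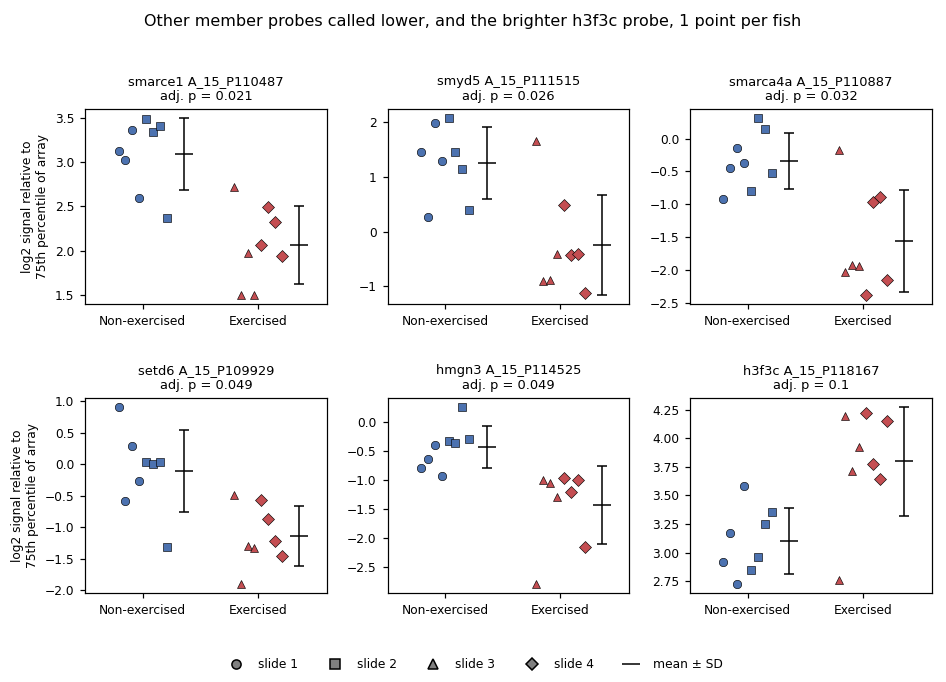
Log2 signal relative to the array's 75th percentile (y axis) in each fish (points, shaped by slide; blue, non-exercised, n = 8; red, exercised, n = 8), with mean ± SD, for the 5 called probes outside the arginine methyltransferases and for the brighter h3f3c probe, which was not called. Exercised fish 1 (the first triangle) lies within the non-exercised range in every panel but that of hmgn3, where all exercised points lie below all non-exercised points.

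The same fish lay at the edge of their groups in many of the called probes. Exercised fish 1 was the highest exercised fish in 6 of the 9, and non-exercised fish 8 was the lowest non-exercised fish in 6 of the 9. Non-exercised fish 8 had a slow muscle marker sum of 13.03, against 1.42 to 2.93 in the other non-exercised fish, but this sum covers only 2 probes. The same fish had the highest fibroblast marker sum of its group, 266.0. Exercised fish 1 had the highest sum of proliferating cell markers of all fish, 197.1, and the lowest fibroblast marker sum of its group, 55.0. The part of these in the values was not tested. With single fish left out, the number of member probes called lower ranged from 2, without exercised fish 2, to 10, without non-exercised fish 8.

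**Figure D4:**
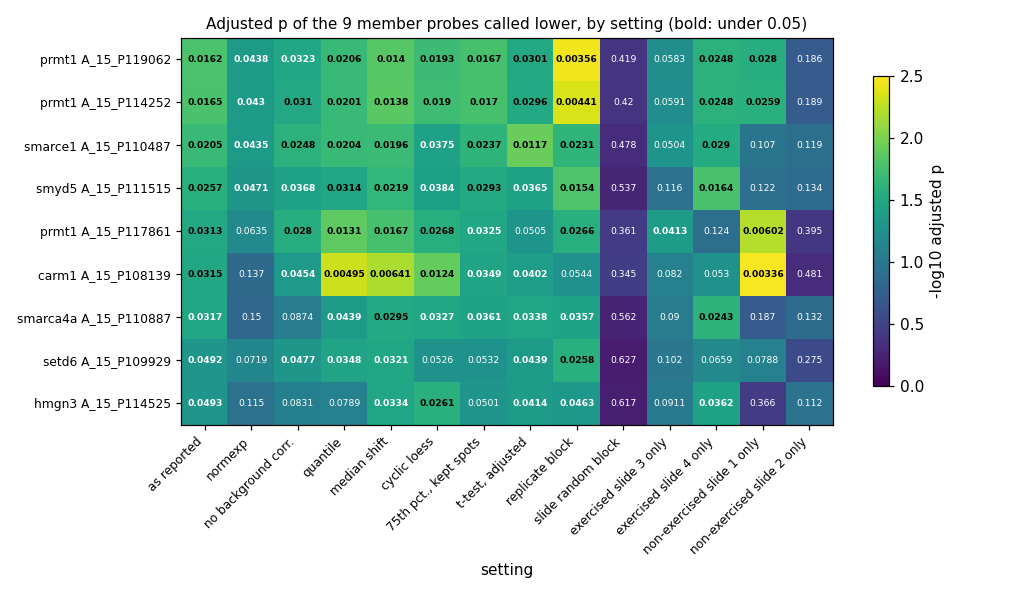
Adjusted p-values (numbers and colour, as -log10) of the 9 called member probes (y axis) under the reported setting and 13 others (x axis), bold where under 0.05. Both bright prmt1 probes, smarce1 and smyd5 keep their call under every scaling and background setting, whereas no probe keeps it with the slide as a random block or against slide 2 alone.

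The histone deacetylases and sirtuins, 11 genes with 24 probes, held no called probe. hdac1, a class I deacetylase of the NuRD and Sin3 complexes, had 4 probes, all bright and all negative. Its brightest, LOLG556, had a log2 signal of 1.39 to 2.54 in 8 exercised fish (median 1.95) and of 2.24 to 2.91 in 8 non-exercised fish (median 2.49). Below all non-exercised fish lay 6 exercised ones. The difference was -0.56 ± 0.22 (adjusted p = 0.161). The other hdac1 probes differed by -0.43 ± 0.21 at LOLG557 (adjusted p = 0.251), -0.32 ± 0.21 at A_15_P101584 and -0.11 ± 0.21 at LOLG558. LOLG556 was called only where the probes tested were limited to those well above background on all 16 arrays (0.0472) and by the methods' t-test, both unadjusted and after adjustment (0.0494). The methods' t-test also called LOLG557, with an adjusted p of 0.0461.

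hdac3, the deacetylase of the NCoR and SMRT corepressors, had 4 probes with differences of -0.40 to -0.10, and hdac8, a class I deacetylase that acts on cohesin, 4 with -0.15 to 0.08. hdac9b belongs to the class IIa deacetylases, the group that binds MEF2 in muscle. Its 4 probes differed by -0.51 to -0.21 and correlated at 0.90 to 0.98, so their agreement is that of 1 mRNA. Its brightest, LOLG571, had a log2 signal of -0.58 to 1.37 in 8 exercised fish (median 0.75) and of -0.66 to 1.68 in 8 non-exercised fish (median 1.33), with the exercised range inside the non-exercised one. hdac10 differed by -0.57 ± 0.41 and hdac11, the class IV member, by 0.46 ± 0.42. Among the 18 deacetylase probes the adjusted p was 0.161 at the lowest. LOLG570, a probe that carries no RefSeq accession and that the authors' table describes as hdac6, was not a member. It was detected above background in 5 exercised fish and no non-exercised one, and was called higher (limma adjusted p = 0.000212).

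Of the NAD-dependent sirtuins, sirt1 had the largest difference. Its probe A_15_P116625 had a log2 signal of -3.60 to -0.64 in 8 exercised fish (median -2.13) and of -4.18 to -2.35 in 8 non-exercised fish (median -3.21). It was well above background on 4 arrays of exercised and 0 of non-exercised fish, and the 3 highest fish, with -1.33 to -0.64, were exercised fish 2, 3 and 4 of slide 3. The fitted difference of 1.11 ± 0.43 was not called (adjusted p = 0.144). With slide 3 alone as the exercised group it was called (0.011), while slide 4 averaged -2.99 against -3.17 and -3.34 on the non-exercised slides. The brightest sirtuin probe, for the mainly cytoplasmic sirt2, differed by 0.22 ± 0.26, the mitochondrial sirt5 by 0.21 ± 0.31 and the nuclear sirt6 by -0.014 ± 0.29. The 2 probes of sirt4, another mitochondrial sirtuin, were well above background on 2 and 0 arrays and differed by 0.68 ± 0.44 and 0.038 ± 0.38.

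The partners of the class IIa deacetylases in muscle were examined as a list, of which 14 genes were measured with 49 probes: MEF2 and myogenic factors, a serum response factor gene, calcium-dependent CaM kinase II genes and 14-3-3 proteins. No probe was called, by limma in either direction, and 16 had an unadjusted p under 0.05, 11 of them of the single gene mef2d. Over all probes this unadjusted share was 19.6%. The median difference was 0.31, against 0.26 for all probes. Of the 49 probes, 46 were well above background on at least 8 arrays, and all probes that bright had a median of -0.09. In the list, 28 probes had a positive and 21 a negative difference. mef2d, named after its values were seen, was positive in 13 of 13 probes, with differences of 0.29 to 0.78 and adjusted p-values of 0.0687 to 0.634. These 13 probes are of 1 gene and do not count as separate measurements. Other MEF2 genes had probes of both signs, such as 0.73 and -0.21 for mef2aa and 0.54 and -0.67 for mef2ca. Depending on the setting, 0 to 9 probes of the list were called, with 9 under cyclic loess and 6 under quantile normalization. Of all probes, cyclic loess called 6.1% higher and 3.54% lower, and quantile normalization 4.06% higher and 3.55% lower.

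The histone genes did not move together. H3.3 is the replacement variant of histone H3 that is laid down outside of DNA replication and at transcribed genes, and several zebrafish genes code for it. h3f3a had 12 probes, all with negative differences of -0.87 to -0.45, of which 3 had an unadjusted p under 0.05 and none was called. Its probe A_15_P112328 had a log2 signal of 1.01 to 3.58 in 8 exercised fish (median 1.88) and of 2.23 to 3.95 in 8 non-exercised fish (median 2.82), and the difference was -0.86 ± 0.39 (adjusted p = 0.223). h3f3c had 2 probes, both with positive differences. A_15_P118167 had a log2 signal of 2.76 to 4.22 in 8 exercised fish (median 3.85) and of 2.72 to 3.58 in 8 non-exercised fish (median 3.07). In this case 7 exercised fish lay above all non-exercised fish, and exercised fish 1, at 2.76, lay at the bottom of the non-exercised range. The difference was 0.70 ± 0.25 (adjusted p = 0.103) at A_15_P118167 and 0.73 ± 0.27 (adjusted p = 0.117) at A_15_P106953. Both were called without exercised fish 1 (adjusted p = 0.0197 and 0.0259), under quantile normalization (0.0218 and 0.048), under cyclic loess (0.0187 and 0.0176), with both filters on background, with slide 4 alone as the exercised group and by the methods' t-test without adjustment. Neither was called with normexp correction (0.184 and 0.175), with no background correction or under the median shift, with adjusted p of up to 0.352 and 0.369. The genes h3f3a and h3f3c were singled out after their values were seen, and probes of such similar genes may share target RNA.

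The fish with the highest levels of h3f3a were also those with the highest markers of proliferating cells. Averaged over the 11 probes measured on all arrays, it was highest in non-exercised fish 6 (3.03), 7 (3.00) and 3 (2.64) and exercised fish 1 (2.83) and 6 (2.63), and at or below 1.92 in the others. The same 5 fish had the 5 highest sums of proliferating cell markers: 156.1, 43.8, 28.1, 197.1 and 45.9, with 24.8 at most in the others. Among the others the order was not the same. Exercised fish 2 had a marker sum of 20.3 and an h3f3a level of 0.93, and non-exercised fish 5 had 15.1 and 1.92. The 33 proliferating cell probes were mostly dim: 1 was well above background on all 16 arrays and 12 on at least 8. The match of the 5 highest fish was noticed in the data, and the part of dividing cells in the h3f3a difference was not tested. h3f3d differed by -0.67 ± 0.34 (adjusted p = 0.285). The H2A variant genes h2ax, h2ax1 and h2az2a differed by -0.48 to -0.28, and the brightest histone probe, h2ax1 A_15_P110304, by -0.42 ± 0.37 (adjusted p = 0.607).

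**Figure D5:**
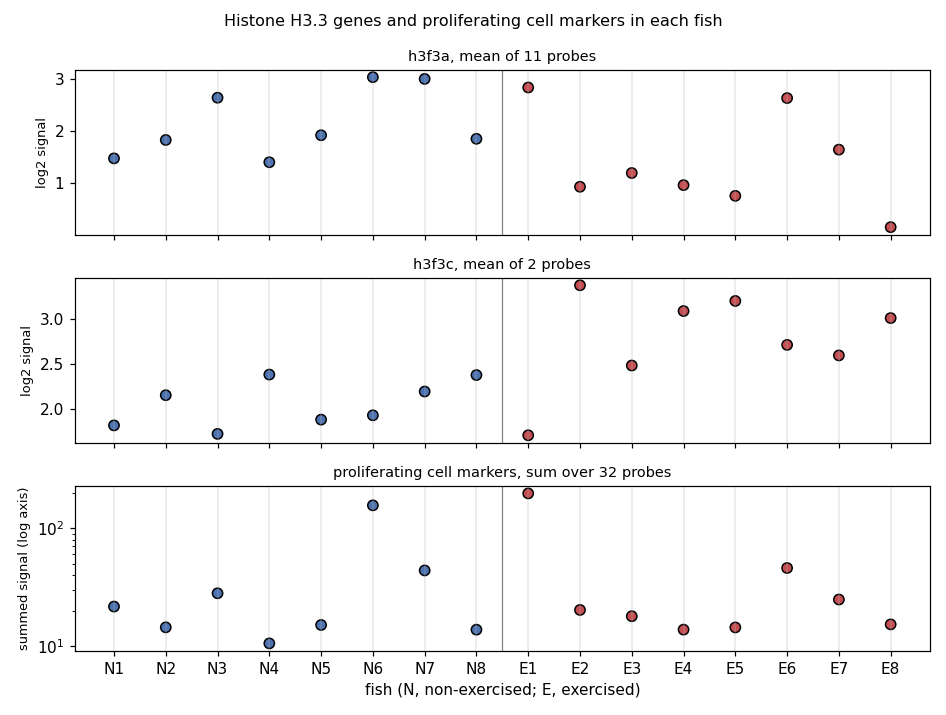
Mean log2 signal of 11 h3f3a probes (top) and 2 h3f3c probes (middle) and the summed signal of 32 probes of proliferating cell markers on a log axis (bottom), for each fish (x axis; blue, non-exercised N1 to N8; red, exercised E1 to E8). The fish with the 5 highest h3f3a levels, N3, N6, N7, E1 and E6, have the 5 highest marker sums, and E1 is the exercised fish with the lowest h3f3c level.

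dnmt1, the maintenance DNA methyltransferase, was the only DNA methylation gene measured and the member with the widest spread. It was named after its values were seen. Its probe A_15_P100707 had a log2 signal of -4.54 to 0.79 in 8 exercised fish (median -0.45) and of -5.03 to 4.46 in 8 non-exercised fish (median -0.18). Non-exercised fish 6, at 4.46, stood far above the next highest, at 0.42, and had the highest proliferating cell marker sum of its group, whereas exercised fish 1, with a higher sum, had the lowest dnmt1 level of its group, -4.54. The SD of dnmt1 was 3.17 in non-exercised and 1.77 in exercised fish, against median SDs of 0.57 and 0.65 over the members. The difference was 0.17 ± 1.13 (adjusted p = 0.939).

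The acetyltransferases, demethylases and readers held no probe with an unadjusted p under 0.05. The 6 probes of kat5a (Tip60), kat7b, kat8 and kat14 had differences of -0.36 to 0.17, and the brightest, kat8 A_15_P112740, differed by -0.022 ± 0.21. kdm5bb, a demethylase of histone H3 lysine methylation, differed by 0.20 ± 0.20 and kdm6bb, of the family that removes the Polycomb mark, by -0.21 ± 0.30. Of the 16 reader probes, 0 had an unadjusted p under 0.05, and the brightest, for the PHD finger protein gene ing3, had a log2 signal of 2.80 to 3.11 in 7 exercised fish (median 2.94) and of 2.35 to 3.104 in 8 non-exercised fish (median 2.84) and differed by 0.13 ± 0.21. brd9, a bromodomain subunit of a SWI/SNF complex, was named after its values were seen: 7 exercised fish lay below all non-exercised fish, with -0.54 to 0.72 against 0.76 to 1.55, while exercised fish 5 was at 4.17. Its difference was -0.42 ± 0.48 (adjusted p = 0.662) with all fish and -0.90 (adjusted p = 0.0469) without exercised fish 5.

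Among the histone-binding WD40 proteins shared by deacetylase and Polycomb complexes, rbbp7 had a log2 signal of -1.57 to 0.68 in 8 exercised fish (median -0.31) and of -0.23 to 0.95 in 8 non-exercised fish (median 0.55) at A_15_P102607. Below the whole non-exercised range lay 5 exercised fish. The difference of -0.95 ± 0.30 missed the threshold (adjusted p = 0.0687) and passed it with slide 3 alone as the exercised group (0.0379), without exercised fish 5 (0.03), without non-exercised fish 8 (0.0443) and with the filter at 8 arrays well above background (0.0299). Its close relative rbbp4 differed by -0.53 and -0.51 at 2 probes, the brighter being A_15_P103260 (adjusted p = 0.367). suz12a, the only Polycomb repressive complex 2 gene measured, was well above background on 1 array and differed by 0.83 ± 0.38, a value near background.

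Other chromatin regulators outside these families were examined as a list. Of 143 genes listed, 60 were measured with 80 probes, of which 0 were called higher and 1 lower, and 12 had an unadjusted p under 0.05. Over all probes, 1.79% were called lower, 4.58% higher, and 19.6% had an unadjusted p under 0.05. None of the counts of the list was above these shares. The list includes nsfl1c, which codes for a cofactor of p97 and is no chromatin gene. The called probe was actl6a A_15_P108502, coding for the actin-like subunit BAF53A of SWI/SNF and INO80, with a log2 signal of -3.02 to -0.72 in 8 exercised fish (median -1.65) and of -1.22 to 0.24 in 8 non-exercised fish (median -0.25). As for smarce1, 6 exercised fish lay below all non-exercised fish, and it fell by 1.37 ± 0.33 (adjusted p = 0.0169), with the call kept with any single fish left out (0.0061 to 0.0407). A dim second actl6a probe, well above background on no array, differed by 0.079 ± 0.37. ruvbl1 and ruvbl2, the helicases found with actl6a in INO80 and Tip60 complexes and named after their values were seen, differed by -1.39 ± 0.46 (adjusted p = 0.0835) and -1.64 ± 0.55 (adjusted p = 0.0873).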

How the data were processed

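The samples were 16 zebrafish, 8 exercised and 8 non-exercised by their labels, with 1 array each. The authors' scanner files, made with Agilent Feature Extraction 10.7.3.1 per the submitters' processing notes, were deposited with intensities on a linear scale: the median of each spot, its surroundings, and the processed signal, which has the background taken off. The deposited table of the authors' own fold changes and p-values was not used, apart from its description of the LOLG570 probe, which was added after its values were seen.

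Processed signals were converted to log2 and centred on the array's 75th percentile (over 43803 non-control probes), without 49 to 892 outlier spots per array (no spot was saturated). Groups were compared by lmFit and eBayes of limma 3.58.1 in R 4.3.3 (statmod 1.5.0), with p-values adjusted by Benjamini-Hochberg across the 43803 probes. This is the fit across all probes that stands in for the methods' unpaired t-test, which was run as an alternative. The limma fit was tested on simulated data, where it recovered the direction and size of planted changes. These changes were larger than the difference of any member, and the simulated noise was independent between arrays. The check therefore does not cover a correlation within slides. Accessions were named through a RefSeq table of the GRCz12tu assembly, used for names only. Figures were drawn with Python 3.11.15, pandas 2.3.3 and matplotlib 3.10.9.

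Members, gene lists and tests were chosen with earlier results of these data known. Named were all prmt and carm1 probes, all called members with the other probes of their gene, and the hdac and sirt families. The brightest probe of each class that was well above background on all 16 arrays was also named, as were members with an unadjusted p under 0.01. Of the other chromatin regulators and the deacetylase partners, called probes were named. Marker probes were named only to describe the fast muscle sum. Genes named after their values were seen, smarcb1a and dnmt1 among them, are said to be so. Beyond this rule are also chd1l, chd4a, chd7, smyd1b, suz12a, kdm6bb, kat5a, kat7b, kat14, h3f3d and the H2A genes, given to complete their class. Alternatives were normexp (offset 50, on the median signal), no background correction, quantile, median shift, cyclic loess, filters at 8 and 16 arrays well above background, the t-test, a random block for the slide, a replicate block, single slides and each fish left out. A percentile over the kept spots was chosen after seeing the data. The number of arrays limits the precision. No sequence is shown.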

Additional observations from a re-analysis of the deposited data

Results flagged for a closer look

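In 116 sets of 1 named probe in 1 group, 7 held a fish whose gap to its nearest neighbour was above Dixon's 95% critical value for the group's range. Chance flags about 1 in 20 such sets, so most or all of the 7 may be chance. In exercised fish 5, brd9 A_15_P113076 was at 4.17, with the next highest exercised fish at 0.72. In exercised fish 1, h3f3c A_15_P118167 was at 2.76, with the next lowest at 3.64, and sirt6 A_15_P113991 was at 1.49, with the next highest at 0.30. h2ax1 A_15_P110304 was low in exercised fish 8, at 1.49 against 3.07 in the next lowest, and in non-exercised fish 1, at 2.10 against 3.42. hmgn3 A_15_P106515 was high in non-exercised fish 7, at 2.66 against 2.11, and the dim sirt4 A_15_P109215 in non-exercised fish 8, at -2.15 against -3.26. No cause of these values was tested.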

How the results depend on the processing

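The number of member probes called lower, 9 as reported, was 4 with normexp, where 0.642% of all probes were called lower, 5 among probes well above background on all 16 arrays (8.32%), 14 by the methods' t-test at an unadjusted p under 0.01 (4.15%), 2 with slide 3 alone as the exercised group (1.41%), 6 with slide 4 alone (2.5%), 4 with slide 1 alone as the non-exercised group (1.22%), 0 with slide 2 alone (0.194%) and 0 with the slide as a random block, where the consensus correlation within slides was 0.30. Under the other settings it was 7 to 12, with 1.57% to 8.85% of all probes called lower, and 2 to 10 with 1 fish left out. The number called higher, 0 as reported, was 2 under quantile normalization (4.06% of all probes), cyclic loess (6.1%), the filters at 8 (6.23%) and 16 arrays (8.49%) and the unadjusted t-test (6.58%), 1 by the adjusted t-test (4.51%) and with slide 3 alone (3.01%), 8 with slide 4 alone, where 33.2% of all probes were called higher, and 0 to 2 with 1 fish left out.

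Of the other chromatin regulators, 1 probe was lower as reported. The number lower, with the share of all probes, was 2 with no background correction (1.57%) and by the adjusted t-test (2.45%). It was 3 under quantile normalization (3.55%), with the replicate block (2.26%) and with slide 3 alone (1.41%). It was 4 under the median shift (3.26%) and 5 under cyclic loess (3.54%) and the unadjusted t-test (4.15%). With the filter at 8 arrays it was 7 (8.85%) and with slide 4 alone 9 (2.5%). It was 0 with slide 2 alone (0.194%) or the slide as a random block (0 probes), and 1 to 6 with 1 fish left out. Higher were 1 under cyclic loess (6.1%) and 4 with slide 4 alone (33.2%). Of the deacetylase partners, 6 were called under quantile normalization, 9 under cyclic loess, 4 and 5 with the filters at 8 and 16 arrays, 2 and 7 by the adjusted and unadjusted t-test, 5 with slide 4 alone and 0 to 4 with 1 fish left out. The same-numbered fish of both groups correlated at -0.02 to 0.43 in their deviations, and 3 of 8 exercised fish correlated best with their own number, so the numbers were not taken to pair the fish; the replicate block gave 10 member probes lower and 0 higher (2.26% and 5.15% of all probes), with prmt5 A_15_P110162 (adjusted p = 0.0154) and rbbp7 A_15_P102607 (0.0329) gained and carm1 A_15_P108139 lost (0.0544).

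Over 58 named probes and 32 settings, 96 values changed sign, none of them of a called probe. Sign changes with no background correction were prmt7 A_15_P115311 (-0.020), carm1 A_15_P121491 (-0.16), hdac8 LOLG567 (-0.11), sirt4 A_15_P109215 (-0.18) and dnmt1 A_15_P100707 (-0.20). Those under quantile normalization were prmt7 A_15_P115311 (-0.27), carm1 A_15_P121491 (-0.42), kat8 A_15_P112740 (0.022), hdac8 LOLG567 (-0.39), sirt4 A_15_P109215 (-0.31) and dnmt1 A_15_P100707 (-0.13). Changes under the median shift were prmt7 A_15_P115311 (-0.14), carm1 A_15_P121491 (-0.16), ing3 A_15_P113835 (-0.15), sirt2 A_15_P114823 (-0.028), kdm5bb A_15_P108771 (-0.046), hdac8 LOLG567 (-0.17), sirt4 A_15_P109215 (-0.21), sirt5 A_15_P119663 (-0.038), hdac8 A_15_P118541 (-0.17) and dnmt1 A_15_P100707 (-0.085). Sign changes under cyclic loess were prmt7 A_15_P115311 (-0.069), carm1 A_15_P121491 (-0.30), kat8 A_15_P112740 (0.11), hdac1 LOLG558 (0.021), sirt6 A_15_P113991 (0.096), hdac8 LOLG567 (-0.079) and sirt4 A_15_P109215 (-0.35). Those with slide 4 alone as exercised group were prmt7 A_15_P115311 (-0.25), carm1 A_15_P102761 (0.35) and hdac8 LOLG567 (-0.072). Changes with normexp were carm1 A_15_P121491 (-0.19), hdac8 LOLG565 (0.0044), hdac8 LOLG567 (-0.067), sirt4 A_15_P109215 (-0.078), sirt5 A_15_P119663 (-0.032) and dnmt1 A_15_P100707 (-0.12). Sign changes with slide 3 alone as exercised group were carm1 A_15_P121491 (-0.085), kat8 A_15_P112740 (0.047), hdac8 LOLG565 (0.079), sirt6 A_15_P113991 (0.13), hdac8 LOLG566 (0.0012), hdac3 LOLG561 (0.17), sirt4 A_15_P109215 (-0.66) and dnmt1 A_15_P100707 (-0.45). Those with slide 1 alone as non-exercised group were carm1 A_15_P121491 (-0.27), carm1 A_15_P102761 (0.093), kat8 A_15_P112740 (0.033), hdac8 LOLG565 (0.25), sirt6 A_15_P113991 (0.11), hdac9b LOLG571 (0.069), hdac9b A_15_P116031 (0.064), hdac9b LOLG572 (0.087) and hdac8 LOLG566 (0.0099). Changes with the percentile over kept spots were kat8 A_15_P112740 (0.0059) and sirt6 A_15_P113991 (0.014). Sign changes with slide 2 alone as non-exercised group were hdac8 LOLG567 (-0.15), sirt4 A_15_P109215 (-0.26), hdac8 A_15_P118541 (-0.10) and dnmt1 A_15_P100707 (-0.71). With 1 fish left out, the sign varied for prmt7 A_15_P115311 (-0.091 to 0.32), carm1 A_15_P121491 (-0.068 to 0.25), kat8 A_15_P112740 (-0.11 to 0.032), hdac8 LOLG565 (-0.19 to 0.027), sirt6 A_15_P113991 (-0.21 to 0.099), hdac8 LOLG567 (-0.033 to 0.20), hdac8 LOLG566 (-0.26 to 0.019), hdac3 LOLG561 (-0.23 to 0.076), sirt4 A_15_P109215 (-0.19 to 0.23), hdac8 A_15_P118541 (-0.012 to 0.18) and dnmt1 A_15_P100707 (-0.39 to 0.96). The cause of these changes was not tested. Probes well above background on few arrays set the limit, and low values near background have no firm order.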
